A study of Mus musculus with 8 samples.

Results

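Gamma-delta T cells of the mouse eye were taken as cells with a UMI of a CD3 gene (Cd3d, Cd3e or Cd3g) and a UMI of Trdc, the constant segment of the delta chain, that held 0 UMIs of Cd4, Cd8a, Cd8b1, Ncr1, Csf1r and Cd79a. The members were thus chosen by their own UMIs of these genes, whose values are given as a description. A UMI (unique molecular identifier) marks 1 captured RNA molecule. The rule found 86 cells among 11223 kept cells, a share of 0.766%. They were 8 of 1649 cells in the Nr4a1-/- laser library, 9 of 2020 in the Nr4a1-/- control library, 52 of 3791 in the WT laser library and 17 of 3763 in the WT control library.

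CD45+ leukocytes were sorted from the retina and choroid of pooled mouse eyes and profiled by CITE-seq, which reads the RNA and antibody-derived tags (ADTs) of the same cells. The laser groups received 8 burns per eye, a model of choroidal neovascularization, and were collected on day 3, whereas the control groups were not lasered. The mice were females of 10 to 12 weeks, with 11 to 12 mice pooled per laser group and 22 per control group. Each group was 1 library, so no difference between conditions has a replicate check, and intervals below cover counting error only. The Nr4a1-/- mice lack Nr4a1, an orphan nuclear receptor induced by antigen receptor signals, in every cell. The labels give C57BL/6J as the strain of all groups, while the study's methods list the knockout as B6;129S2-Nr4a1tm1Jmi/J, so genotype and strain background cannot be told apart. The Nr4a1-/- control library also belongs to another numbered set of libraries than the other 3.

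Gamma-delta T cells carry a T cell receptor of a gamma and a delta chain in place of the alpha and beta chains of CD4 and CD8 T cells, and many settle in barrier tissues early in life. In mice they divide into cells poised to make IL-17, which respond to the cytokines IL-23 and IL-1, and cells poised for interferon gamma and killing. The IL-17 cells of fetal origin use the variable segment Tcrg-V6 paired with the delta segment Trdv4, and their IL-17 is known to recruit neutrophils and has been tied to vessel growth in mouse models of choroidal neovascularization.

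The variable segments are shown because Tcrg-V6 separated the libraries further on. Both are given from the GRCm38 genome with the GENCODE annotation, on the plus strand. Tcrg-V6 is the last 300 bases of a 309-base coding exon at chr13:19190630-19190929, and Trdv4 is the whole coding exon at chr14:54075217-54075515. Capitals mark the TGT codon of the conserved second cysteine, after which the receptor's hypervariable CDR3 loop begins.
Tcrg-V6: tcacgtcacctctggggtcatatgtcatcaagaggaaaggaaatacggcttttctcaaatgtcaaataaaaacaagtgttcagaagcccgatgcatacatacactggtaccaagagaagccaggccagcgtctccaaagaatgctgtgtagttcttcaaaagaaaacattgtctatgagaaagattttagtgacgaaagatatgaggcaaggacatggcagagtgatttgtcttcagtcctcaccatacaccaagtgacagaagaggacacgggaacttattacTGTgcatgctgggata
Trdv4: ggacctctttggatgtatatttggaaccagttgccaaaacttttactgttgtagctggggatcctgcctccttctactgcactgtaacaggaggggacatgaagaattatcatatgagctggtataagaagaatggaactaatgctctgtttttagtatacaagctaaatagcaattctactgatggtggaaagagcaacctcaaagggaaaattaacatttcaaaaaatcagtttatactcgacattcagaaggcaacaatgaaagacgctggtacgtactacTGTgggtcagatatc
The promoter windows of Il17a, the cytokine gene, and Il23r, which encodes the IL-23 receptor chain, are shown because both genes were among those that set these cells apart from other T cells. They are RefSeq windows of GRCm38.p6, Il17a at chr1:20730655-20730954 on the plus strand and Il23r at chr6:67491806-67492105 on the minus strand, and RefSeq matched 3 of 3 genes looked up. Capitals mark AGGTCA, the half-site shared by many nuclear receptors, or its complement TGACCT.
Il17a: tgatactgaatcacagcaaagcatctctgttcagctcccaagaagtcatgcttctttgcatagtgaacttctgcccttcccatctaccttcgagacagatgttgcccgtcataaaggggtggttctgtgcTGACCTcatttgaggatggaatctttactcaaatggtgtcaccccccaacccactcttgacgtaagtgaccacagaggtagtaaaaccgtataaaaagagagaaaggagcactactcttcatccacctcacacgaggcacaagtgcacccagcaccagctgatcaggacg
Il23r: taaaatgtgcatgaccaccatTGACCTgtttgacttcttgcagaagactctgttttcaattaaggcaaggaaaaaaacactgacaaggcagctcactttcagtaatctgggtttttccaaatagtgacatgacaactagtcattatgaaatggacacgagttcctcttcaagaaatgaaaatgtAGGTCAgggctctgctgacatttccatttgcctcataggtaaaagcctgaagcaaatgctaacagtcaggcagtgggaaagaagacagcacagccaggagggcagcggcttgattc
Il17a held 1 half-site and Il23r held 2. Searched on both strands, AGGTCA occurred in 16.3% of 32851 promoter windows of this length. The longer NBRE, AAAGGTCA, which contains AGGTCA and is the motif of Nr4a1, occurred in 1.51% of windows and in none of these. These matches describe letters in a window.

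The label was checked on genes the rule did not use. Trac, the constant segment of the alpha chain, had a UMI in 2 of 8 Nr4a1-/- laser members, 3 of 9 Nr4a1-/- control members, 19 of 52 WT laser members and 3 of 17 WT control members. The Trac share was 41.7 to 83.5% in the CD4 T cells of the 4 libraries and 54.9 to 77.9% in the CD8 T cells. A UMI of a gamma constant gene (Tcrg-C1, Tcrg-C2 or Tcrg-C4) was present in 5, 8, 45 and 15 members of the Nr4a1-/- laser, Nr4a1-/- control, WT laser and WT control libraries. In the same order, the gamma-delta receptor genes other than Trdc summed to 894, 381, 1711 and 923 CPM (UMIs of a gene scaled to 1000000 UMIs of the summed cells). In CD4 T cells they summed to at most 20.7 CPM in any library. Trbc1, whose beta locus gamma-delta T cells can transcribe, did not pass the test against CD4 T cells (log2 fold change -0.10 ± 0.21 SE, adjusted p = 0.89) or CD8 T cells (-0.12 ± 0.20, adjusted p = 0.86). Trac and Trbc2 were lower than in both classes. In the same order of libraries, Trac, Trbc1 and Trbc2 summed to 1362, 1555, 1105 and 1418 CPM in members. In CD4 T cells they summed to 1889, 2012, 1702 and 2084 CPM. Outside the WT laser library, this sum exceeded the gamma-delta sum of the members.

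The rule genes leave a margin. Trdc had exactly 1 UMI in 13 of the 86 members. Of 156 cells with CD3 and Trdc, 17 were left out by a single UMI of an excluded gene and 53 by more. Trdc occurred in 0%, 0%, 0.360% and 0.324% of B cells, which should lack it, in the Nr4a1-/- laser, Nr4a1-/- control, WT laser and WT control libraries, at median depths of 2213, 4361, 4318 and 4204 UMIs. The members had medians of 2660, 6976, 6378 and 5583 UMIs, so the Nr4a1-/- laser members were read at the lowest depth. Trdc also occurred in 7.23%, 21.8%, 22.1% and 17% of NK cells, which transcribe it without a receptor. No member barcode was shared with another library, and 17 kept barcodes occurred in 2 or more libraries.

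Nr4a1 itself, the deleted gene, had 1 UMI in Nr4a1-/- laser members and 0 in Nr4a1-/- control members, against 70 UMIs in 33 WT laser members and 12 UMIs in 8 WT control members. Across all kept cells Nr4a1 was at 54.9 and 90.7 CPM in the Nr4a1-/- laser and control libraries and at 278 and 310 CPM in the WT laser and control libraries. The altered part of the gene is not given in the sources used here, so the remaining Nr4a1 UMIs may come from outside it. Lyz2, a macrophage lysozyme that T cells should lack, had a UMI in 0%, 0%, 51.9% and 17.6% of members and in 16.7%, 23.2%, 43.8% and 16.7% of CD4 T cells of the Nr4a1-/- laser, Nr4a1-/- control, WT laser and WT control libraries.

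The share of gamma-delta T cells stood apart in the WT laser library. It was 0.485% (95% Clopper-Pearson interval 0.210 to 0.954) in the Nr4a1-/- laser library and 0.446% (0.204 to 0.844) in the Nr4a1-/- control library. It was 1.37% (1.03 to 1.79) in the WT laser library and 0.452% (0.263 to 0.722) in the WT control library. The other 3 intervals lay below that of the WT laser library. The laser to control ratio was 1.09 (95% exact interval 0.366 to 3.18) in Nr4a1-/- eyes and 3.04 (1.73 to 5.60) in WT eyes. Shares were also taken of cells with a CD3 UMI and no UMI of Csf1r or Cd79a. In Nr4a1-/- eyes the members made up 4.06% of 197 such laser cells and 2.57% of 350 control cells. In WT eyes they made up 8.27% of 629 laser cells and 2.76% of 615 control cells. Whether the ratio differs between the genotypes was not tested, since each group is 1 library.

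**Figure D1:**
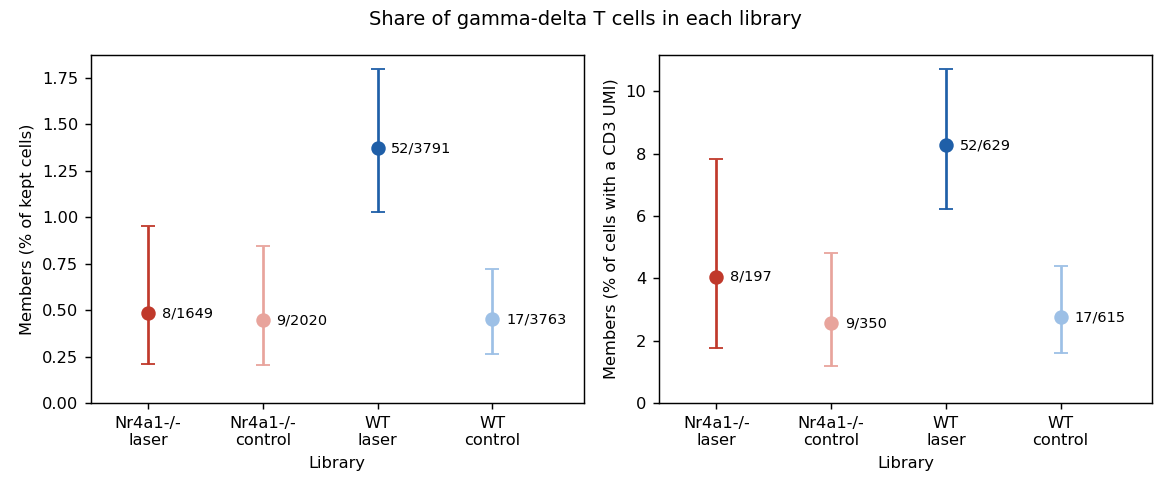
Members as a percentage of kept cells (left) and of cells with a CD3 UMI but no Csf1r or Cd79a (right), by library. Points are shares, bars are 95% Clopper-Pearson intervals, and labels give members over cells. The WT laser point (1.37% and 8.27%) lies above the intervals of the other 3 libraries for kept cells.

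No other lymphocyte class had a laser to control ratio above 1. CD4 T cells had laser to control ratios of 0.538 (0.353 to 0.805) in Nr4a1-/- eyes and 0.801 (0.625 to 1.02) in WT eyes, and CD8 T cells had 0.621 (0.460 to 0.832) and 0.996 (0.837 to 1.19). NK cells had 0.716 (0.539 to 0.945) in Nr4a1-/- eyes and 0.857 (0.708 to 1.04) in WT eyes. B cells had 0.310 (0.244 to 0.389) and 0.447 (0.387 to 0.516). The WT ratio depended on the 6 excluded genes. Without them the CD3 and Trdc cells were 0.849%, 0.990%, 1.90% and 1.33% of the Nr4a1-/- laser, Nr4a1-/- control, WT laser and WT control libraries, and the WT ratio was 1.43 (0.983 to 2.09). After each cell was thinned to 2000 UMIs, the WT ratio was 3.51 (1.87 to 7.06), from 48 members in the laser library and 13 in the control library.

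The members fell into cells with type 17 genes and cells with cytotoxic genes. A UMI of Il17a, Il17f or Il23r was found in 40 members: 2 of 8 Nr4a1-/- laser, 2 of 9 Nr4a1-/- control, 30 of 52 WT laser and 6 of 17 WT control members. At least 10 UMIs of Ccl5, a chemokine of cytotoxic lymphocytes, were found in 31 members: 3, 5, 16 and 7 in the same order. No member was in both sets, and no member with a type 17 UMI held more than 2 Ccl5 UMIs. The remaining 15 members met neither mark. These sets were drawn from the same cells they describe and carry no test.

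Most members with a type 17 UMI shared other receptor and type 17 genes, and 30 of these 40 members were from the WT laser library. Of these 40, Cd163l1 (the scavenger receptor SCART1) had a UMI in 33, Il1r1 (the IL-1 receptor) in 32, Trdv4 in 32 and Tcrg-V6 in 22. A gamma constant gene had a UMI in 40 and Trac in 17, of which 15 were WT laser members. In the 30 WT laser cells, Cd163l1 was in 28, Il1r1 in 27 and Trdv4 in 27. In the 2 Nr4a1-/- laser, 2 Nr4a1-/- control and 6 WT control cells, Cd163l1 was in 1, 1 and 3. Il1r1 was in 1, 0 and 4 of them, and Trdv4 in 0, 1 and 4. The type 17 gene list, which includes the marking genes, made up a median of 1.68% (0.980 to 3.45%) of UMIs per cell in all 40. It made up 0.176% (0 to 0.771%) in the members with Ccl5. The members with Ccl5 held Gzma, which encodes granzyme A, in 20 of 31 cells, a gene of the NK marker list in 23, a gamma constant gene in 25 and Trac in 7. Lef1, a transcription factor of naive T cells, had a UMI in 12 of the 15 members with neither mark, in 16 of 31 with Ccl5 and in 16 of 40 with a type 17 UMI. The members with neither mark had 0 UMIs of Gzma in every library.

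**Figure D2:**
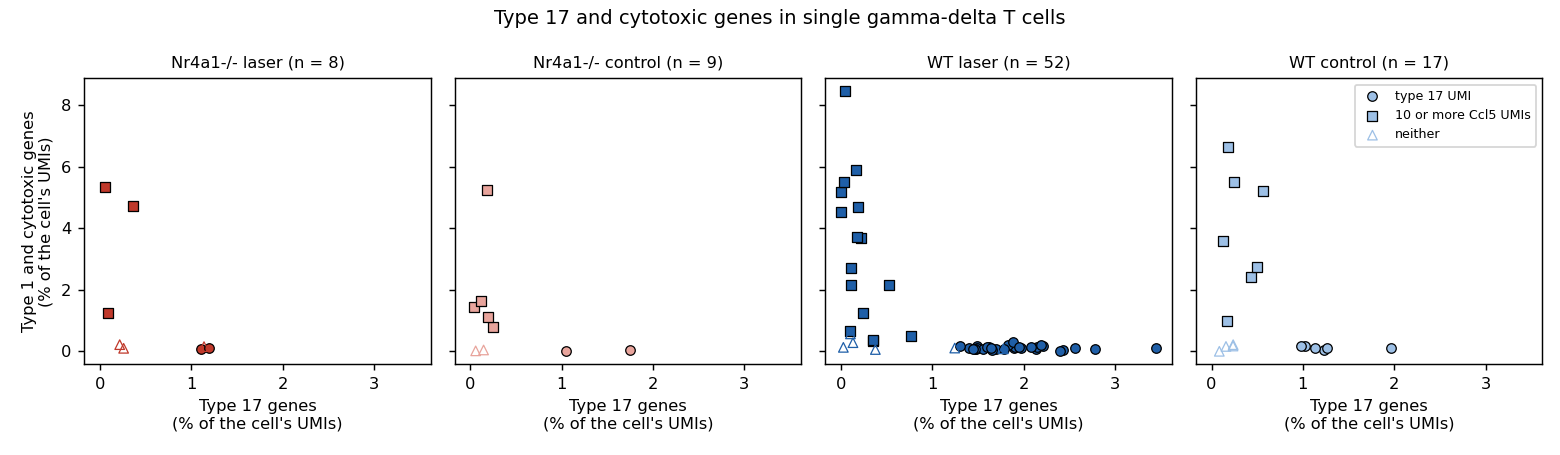
Each point is 1 member, with the share of its UMIs from the type 17 gene list (x axis, %) and from the type 1 and cytotoxic list (y axis, %), 1 panel per library. Circles are members with a UMI of Il17a, Il17f or Il23r, squares are members with at least 10 Ccl5 UMIs, and triangles are members with neither mark. Circles lie along the x axis up to 3.45% and squares along the y axis up to 8.44%.

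Type 17 members were a larger part of the WT laser members, within wide intervals. Their share was 25.0% (3.19 to 65.1) in Nr4a1-/- laser and 22.2% (2.81 to 60.0) in Nr4a1-/- control members. It was 57.7% (43.2 to 71.3) in WT laser and 35.3% (14.2 to 61.7) in WT control members. The WT laser to control ratio of this share was 1.63 (0.669 to 4.80) and that of Nr4a1-/- eyes 1.13 (0.0815 to 15.5), so neither was distinguishable from 1 at these cell numbers.

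A surface protein that the rule did not use differed along the same line, and the other ADTs are not given here for these sets. In each Nr4a1-/- library the type 17 value rested on 2 members. CD90.2, the T cell surface protein Thy-1, was 65.7% of the ADT UMIs of type 17 members and 31.7% of those of Ccl5 members in the Nr4a1-/- laser library. The values were 46.9% and 32.9% in the Nr4a1-/- control library, 48.6% and 9.38% in the WT laser library and 38.8% and 10.2% in the WT control library. Type 17 members were higher in 4 of 4 libraries, by a mean of 28.9 ± 10.9 percentage points (SD, n = 4 libraries). The 2-sided exact permutation p was 0.125, the smallest that 4 pairs allow, so this difference cannot pass a threshold of 0.05. The WT laser value of the Ccl5 members rested on few cells: 1 of them held 6737 of their 12343 ADT UMIs, of which 28 were CD90.2. Without it the Ccl5 value of that library was 20.2%, and without the 2 Ccl5 members with most ADT UMIs it was 30.6%. The mean difference was then 26.2 ± 8.6 and 23.6 ± 9.3 percentage points, with type 17 members higher in 4 of 4 libraries each time.

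Among the members, Tcrg-V6 was found in the WT laser library alone. It had 71 UMIs in 24 of 52 WT laser members (46.2%, 32.2 to 60.5), and 0 UMIs in the 8 Nr4a1-/- laser, 9 Nr4a1-/- control and 17 WT control members. The 0 of 91003 UMIs in WT control members allows up to 33.0 CPM, against 216 CPM in WT laser members, so Tcrg-V6 was at least 6.56-fold higher in WT laser members. The 0 UMIs in Nr4a1-/- laser and control members allow up to 128 and 49.6 CPM. Outside the members, Tcrg-V6 had a UMI in 1, 2, 2 and 1 kept cells of the Nr4a1-/- laser, Nr4a1-/- control, WT laser and WT control libraries, so 24 of the 26 WT laser cells with Tcrg-V6 were members. The 0 in WT control members depended on the excluded genes. Among all cells with CD3 and Trdc, Tcrg-V6 had a UMI in 0 of 14 Nr4a1-/- laser, 0 of 20 Nr4a1-/- control, 25 of 72 WT laser and 1 of 50 WT control cells, with 73 UMIs (144 CPM) in WT laser and 2 UMIs (6.05 CPM) in WT control cells. The kit reads transcript ends, which a variable segment lies far from, so a cell without such a UMI may still use the segment.

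Trdv4 had 0, 4, 208 and 34 UMIs in 0, 1, 30 and 4 members of the Nr4a1-/- laser, Nr4a1-/- control, WT laser and WT control libraries, with a WT laser to control ratio of 1.69 (1.18 to 2.51). Of the 24 members with Tcrg-V6, 23 held Trdv4, 24 held Cd163l1, 22 held a type 17 UMI, 15 held Il17a and 1 held Gzma. Trdv4 was also read in 18.8% of WT laser and 12% of WT control NK cells, where Tcrg-V6 was at 0. Tcrg-V4, the segment of the other IL-17 lineage, had 0, 1, 5 and 3 UMIs, and Tcrg-V1 had 0, 0, 5 and 4 UMIs. Tcrg-V6 shares 73.0 to 77.5% of aligned bases with the other gamma segments compared. Tcrg-C1 and Tcrg-C2 share 97.4%, and Tcrg-V1 and Tcrg-V3 share 96.5%, so how reads split within each of these pairs is uncertain.

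**Figure D3:**
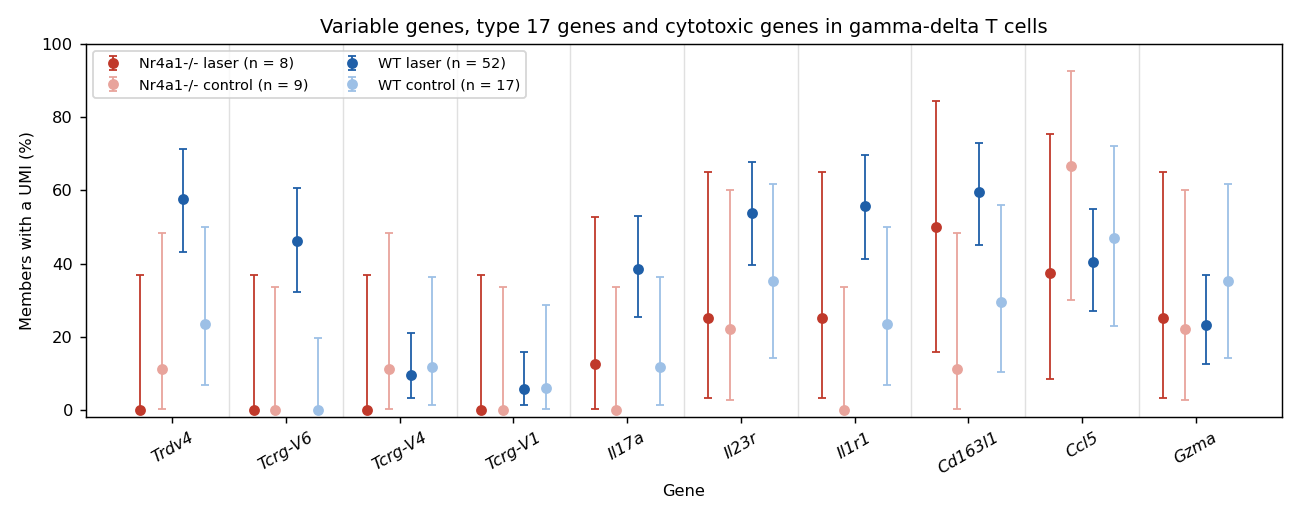
Percentage of members with at least 1 UMI of each gene (y axis) in the 4 libraries, with 95% Clopper-Pearson intervals. Tcrg-V6 stands at 46.2% in WT laser members and at 0 in the other libraries, while Ccl5 and Gzma have overlapping intervals in all 4.

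Il17a followed the same library, with a large share in 1 cell. It had 2 UMIs in 1 Nr4a1-/- laser member, 0 in Nr4a1-/- control members, 155 UMIs in 20 WT laser members and 3 UMIs in 2 WT control members. The WT laser to control ratio was 14.3 (4.81 to 70.2). A single WT laser member held 86 of these UMIs and 35 of the 36 Il17f UMIs of that library. That cell had 1 Trdc UMI, 2 of Trac, 4 of Trbc1, 3 of Tcrg-C1 and 0 of Tcrg-V6 and Cd163l1. Without it the WT ratio of Il17a was 6.50 (2.13 to 32.3) and that of Il17f 0.283 (0.00360 to 22.2). In the WT laser library 31 other cells held 458 Il17a UMIs, 26 of them with a CD3 UMI, so the members were 20 of the 51 WT laser cells with Il17a.

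Ltb (lymphotoxin beta) was at 340, 447, 353 and 286 CPM and Tgfb1 (TGF-beta 1) at 170, 182, 174 and 154 CPM in the Nr4a1-/- laser, Nr4a1-/- control, WT laser and WT control members. Several other cytokine genes had few UMIs or lay mostly in 1 cell. Areg, the growth factor amphiregulin, had 1, 0, 63 and 2 UMIs in the Nr4a1-/- laser, Nr4a1-/- control, WT laser and WT control members, with 37 of the 63 in a single cell. Tnf had 0, 1, 12 and 1 UMIs and Ifng 0, 0, 2 and 0. Il22 and Csf2 had 0 UMIs in all 4 libraries. Vegfa, the main vessel growth factor, had 0 UMIs in the 86 members, against 197 CPM in the pooled NK cells. It was thus at least 33.0-fold lower in the members than in NK cells (floor of 3 counts over the 4 libraries). Vegfa did not pass the test against CD4 T or CD8 T cells.

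Against CD4 T cells, gamma-delta T cells were higher in type 17 genes and in cytotoxic genes and lower in genes of naive and recirculating T cells. Each class was summed per library and compared over the 4 libraries, with the library as a block, by edgeR's quasi-likelihood test with Benjamini-Hochberg adjustment at 0.05. Of 7638 genes, 236 (3.09%) were higher and 250 (3.27%) lower in gamma-delta T cells than in CD4 T cells. Against CD8 T cells 278 (3.64%) were higher and 229 (3%) lower, and against NK cells 533 (6.98%) were higher and 547 (7.16%) lower. The split depended on the scaling. Without TMM factors it was 322 and 125 against CD4 T cells, 370 and 132 against CD8 T cells, and 593 and 463 against NK cells, as the median log2 fold change against CD4 T cells moved to 0.10 without TMM, from -0.06 with it. Both CD4 and CD8 T cells were passed by 153 genes that were higher and 147 that were lower, of which 102 and 103 went the same way in all 4 libraries. The classes shared the members as 1 arm, so these counts are not independent of each other. Without the WT laser library, which holds most members, 96 genes were higher and 80 lower than in CD4 T cells, and 79 and 86 against CD8 T cells. Without the WT control library the counts were 124 and 95 against CD4 T cells and 143 and 77 against CD8 T cells.

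Cd163l1 was among the genes furthest above both alpha-beta classes. It was at 425, 331, 1415 and 319 CPM in the Nr4a1-/- laser, Nr4a1-/- control, WT laser and WT control members, and at 0, 0, 5.25 and 0 CPM in the CD4 T cells of the same libraries. Its log2 fold change was 8.37 ± 0.37 (SE; adjusted p = 6.3e-13) against CD4 T cells and 6.47 ± 0.28 (adjusted p = 3.6e-13) against CD8 T cells. Blk, a Src-family kinase of B cells and IL-17 gamma-delta T cells, was at 128, 49.6, 451 and 143 CPM in members and at 0 in all 4 CD4 T cell libraries, so it was at least 248-fold higher in the members. Its log2 fold change against CD8 T cells was 6.11 ± 0.57 (adjusted p = 2.4e-06). Il23r was at 128, 165, 478 and 440 CPM in members, with log2 fold changes of 5.29 ± 0.38 against CD4 T cells (adjusted p = 3.7e-09) and 8.38 ± 0.47 against CD8 T cells (adjusted p = 3.3e-11).

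Tcrg-C1 was at 213, 66.2, 502 and 187 CPM and Tcrg-C4 at 298, 149, 170 and 143 CPM in the Nr4a1-/- laser, Nr4a1-/- control, WT laser and WT control members. Both were higher than in CD4 T and CD8 T cells in 4 of 4 libraries, by log2 fold changes of 4.83 to 6.96. Pde5a, a cyclic GMP phosphodiesterase, was 5.88 ± 0.76 above CD4 T cells and 5.74 ± 0.64 above CD8 T cells on the log2 scale. Sdc1, the proteoglycan syndecan-1 that marks IL-17 gamma-delta T cells, was 4.80 ± 0.74 and 5.70 ± 0.70 above them. Ppp1r14c, Pxdc1 and Gm43434 were also higher in 4 of 4 libraries against both classes. Pxdc1 was uneven, at 553 CPM in Nr4a1-/- laser members and 33.1 to 67.0 CPM in the members of the other libraries.

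The genes furthest below both classes were mostly at 0 in the members. Tnip3 and Als2cl had 0 UMIs in all 86 members. Tnip3 was at 37.9 CPM in the pooled CD4 T cells and 27.3 CPM in the pooled CD8 T cells, so it was at least 6.37-fold and 4.59-fold lower in the members. Als2cl was at least 3.67-fold and 2.95-fold lower. Igfbp4, a binding protein of insulin-like growth factors, had 0, 0, 0 and 11 CPM in the Nr4a1-/- laser, Nr4a1-/- control, WT laser and WT control members, against 79.8, 125, 68.3 and 132 CPM in CD4 T cells. Cd6, a receptor that tunes T cell activation, was at 0, 16.5, 6.09 and 65.9 CPM in members, against 168, 86.9, 213 and 145 CPM in CD4 T cells (log2 fold change -3.29 ± 0.52, adjusted p = 0.00027). Il6ra, the IL-6 receptor, was at 0 in 3 of 4 member libraries, against 72.2 to 93.0 CPM in CD4 T cells. Ubash3a, a brake on receptor signals, was lower than in both classes in 4 of 4 libraries, as were Slfn1, Ifi27l2a, Lrig1 and Gm47015. Without the WT laser library, Igfbp4, Il6ra, Cd6, Slfn1, Ifi27l2a, Lrig1 and Gm47015 no longer passed against CD8 T cells, and Gm47015 no longer passed against CD4 T cells (adjusted p = 0.44).

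**Figure D4:**
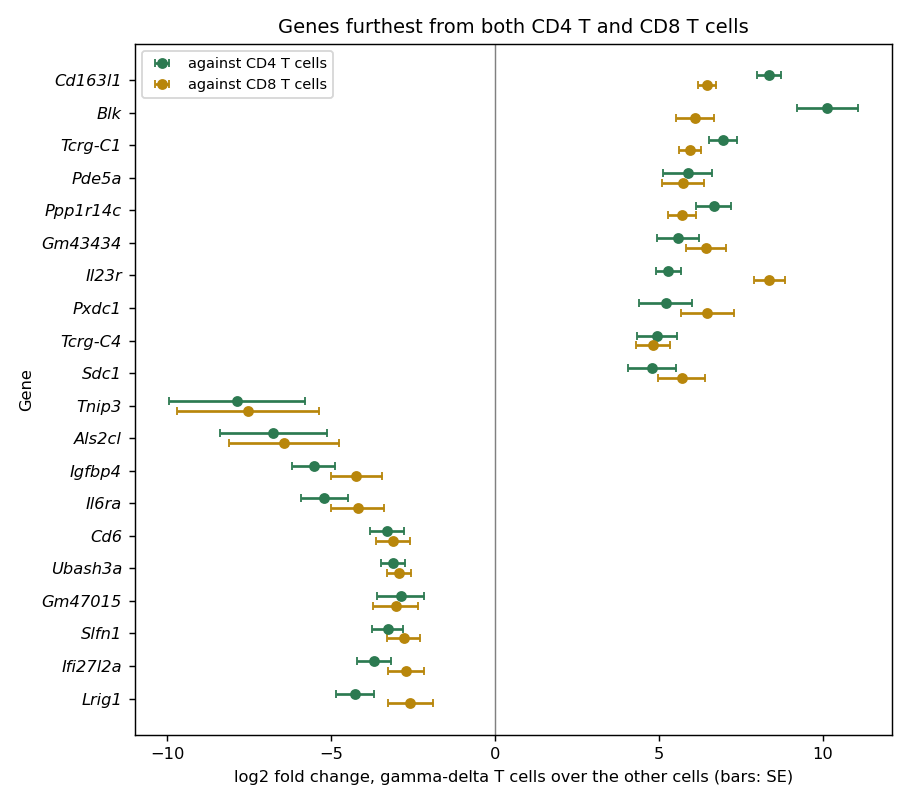
Log2 fold changes of gamma-delta T cells over CD4 T cells (green) and CD8 T cells (brown) for 10 genes higher and 10 lower than both, with SE bars from edgeR over 4 libraries. Cd163l1 lies at 8.37 and 6.47. The points of Tnip3, Als2cl and, against CD4 T cells, Blk come from a class at 0 UMIs and depend on the prior count, so their bounds in the text apply instead.

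The type 17 list held 27 genes, of which 20 were tested. Against CD4 T cells 15 were higher and 0 lower, with a median log2 fold change of 2.29, and against CD8 T cells 20 of 20 were higher, with a median of 3.70. Against NK cells 18 were higher, with a median of 5.26. The median over all genes was -0.06 against CD4 T cells, -0.07 against CD8 T cells and -0.06 against NK cells. Il1r1 was at 468, 0, 457 and 187 CPM in the Nr4a1-/- laser, Nr4a1-/- control, WT laser and WT control members and exceeded CD4 T cells in 3 of 4 libraries (4.74 ± 0.46, adjusted p = 3.8e-07). Zbtb16, which encodes PLZF, the factor of innate-like T cells, was at 383, 49.6, 481 and 418 CPM, 2.90 ± 0.45 above CD4 T cells and 4.46 ± 0.46 above CD8 T cells on the log2 scale. Maf, a factor needed for IL-17 gamma-delta T cells, passed against CD8 T cells (3.8 ± 0.39, adjusted p = 6.5e-07) but not against CD4 T cells (0.55 ± 0.32, adjusted p = 0.40). Rora, Il7r, Il18r1 and S100a4 likewise passed against CD8 T cells and not against CD4 T cells.

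The type 1 and cytotoxic list lay between the classes. Of its 24 genes, 12 were higher and 1 lower than in CD4 T cells, 0 were higher and 2 lower than in CD8 T cells, and 0 were higher and 17 lower than in NK cells. Ccl5 was at 4765, 4732, 3202 and 7395 CPM in the Nr4a1-/- laser, Nr4a1-/- control, WT laser and WT control members. It was 1.22 ± 0.25 above CD4 T cells (adjusted p = 0.0027) and 1.78 ± 0.24 below NK cells (log2 fold change -1.78, adjusted p = 1.1e-05). Klrk1, the activating receptor NKG2D, was 2.55 ± 0.33 above CD4 T cells and did not pass against CD8 T cells (0.84 ± 0.29, adjusted p = 0.096). Ifng was the 1 gene lower than in CD4 T cells, and Gzmk and Klrd1 were the 2 lower than in CD8 T cells. The NK marker list had 5 of 7 genes higher than in CD4 T cells and 7 of 7 lower than in NK cells. Klrb1c, which encodes NK1.1, was at 42.5, 149, 30.4 and 87.9 CPM in members.

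Genes of naive and recirculating T cells were lower. Of 11, 9 were lower and 0 higher than in CD4 T cells (median log2 fold change -1.17) and 6 were lower than in CD8 T cells (median -0.73), while against NK cells 4 were higher and 1 lower. Ccr7, the lymph node homing receptor, was at 0, 248, 131 and 165 CPM in the Nr4a1-/- laser, Nr4a1-/- control, WT laser and WT control members, against 248, 427, 267 and 364 CPM in CD4 T cells (-1.25 ± 0.24, adjusted p = 0.0016). Of the 43 Ccr7 UMIs in WT laser members, 35 were in 1 cell. S1pr1, the receptor for leaving tissue, was lower than in CD4 T cells (-1.17 ± 0.25, adjusted p = 0.0046) and did not pass against CD8 T cells (-0.53 ± 0.25, adjusted p = 0.27). Of the 12 genes of CD3 and proximal signaling, Lck, Cd2, Cd5, Cd6 and Cd28 were lower than in both CD4 and CD8 T cells and the other 7 passed neither test. Cd5 was at 42.5, 16.5, 42.6 and 0 CPM in members, against 248, 174, 247 and 255 CPM in CD4 T cells.

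Genes of residency and activation were mixed. Of 15, 4 were higher and 3 lower than in CD4 T cells, and 6 were higher than in CD8 T cells. Cxcr6, a chemokine receptor of tissue lymphocytes, was at 298, 99.3, 493 and 143 CPM in the Nr4a1-/- laser, Nr4a1-/- control, WT laser and WT control members, above CD4 T cells in 4 of 4 libraries (1.35 ± 0.24, adjusted p = 0.00083). Pdcd1, which encodes PD-1, was at 85.1, 116, 441 and 264 CPM, 2.95 ± 0.34 above CD4 T cells and 2.34 ± 0.30 above CD8 T cells. Ctla4, Tnfrsf4 and Tnfrsf18, which mark activated and regulatory CD4 T cells, were lower than in CD4 T cells. The heat shock list had 0 genes passing against CD4 T or NK cells, and Hspa8 and Hspe1 were lower than in CD8 T cells. Of 14 immediate-early genes only Nr4a2, a relative of Nr4a1, was higher than in CD4 T cells (1.36 ± 0.22, adjusted p = 0.00029). Against CD8 T cells 0 of them passed. Against NK cells Fos was higher and Nr4a1 and Nr4a2 were lower.

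Of 86 ADTs, 2 (2.33%) were higher and 2 (2.33%) lower than in CD4 T cells, 0 (0%) were higher and 3 (3.49%) lower than in CD8 T cells, and 4 (4.65%) were higher and 8 (9.3%) lower than in NK cells. At an unadjusted p under 0.05, 19 ADTs differed from CD8 T cells in either direction. The median log2 fold change over all ADTs was -0.24 against CD4 T, -0.23 against CD8 T and -0.50 against NK cells. With TMM factors it was -0.04, 0.01 and -0.04. Single cells held much of some ADT totals. A WT laser member held 6112 Ly-6C UMIs, of 26828 ADT UMIs in these members. In the Nr4a1-/- control library, a CD4 T cell held 14303 CD45 UMIs of 42993 in its class, and an NK cell 14335 of 42874. CD103, an integrin chain of epithelial lymphocytes, was at 6.47, 6.76, 1.79 and 2.32 per 1000 ADT UMIs in the Nr4a1-/- laser, Nr4a1-/- control, WT laser and WT control members, against 0.794, 1.44, 1.06 and 0.645 in CD4 T cells (log2 fold change 1.76 ± 0.47, adjusted p = 0.036). CD301b was the other ADT above CD4 T cells (1.5 ± 0.36, adjusted p = 0.019), and CD55 was lower (-1.57 ± 0.44, adjusted p = 0.042). The ADTs of PD-1 (CD279), CXCR6 (CD186) and the IL-23 receptor passed against neither CD4 T nor CD8 T cells. Against CD4 T cells they were at log2 fold changes of 0.30, 0.79 and -1.03 (edgeR adjusted p = 0.74, 0.51 and 0.56). They had 76, 11 and 2 UMIs in all members. CD4 and CD8a protein were lower than in their own classes, but the rule excluded the genes of both. CD4 protein was higher than in NK cells (1.30 ± 0.40, edgeR adjusted p = 0.034). It did not pass against CD8 T cells (1.11 ± 0.39, adjusted p = 0.096). A single member held 28 of the 41 CD4 ADT UMIs of Nr4a1-/- control members, and another 34 of the 84 of WT laser members. CD90.2 was higher than in NK cells (2.32 ± 0.44, adjusted p = 0.0012). Without library as a block, 0 ADTs were higher and 1 lower than in CD4 T cells, 0 and 0 than in CD8 T cells, and 1 and 2 than in NK cells. Leaving out 1 library in turn gave 0 to 2 ADTs higher and 1 to 2 lower than in CD4 T cells, and 0 were lower than in CD8 T cells without the Nr4a1-/- laser, the WT laser or the WT control library.

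Laser was compared with control within each genotype, as ratios of CPM in the summed members. Genes were counted when they differed at least 2-fold and the library with more of the gene held 20 UMIs or more, without a p-value, since each group is 1 library. In Nr4a1-/- eyes 18 of 476 genes (3.78%) were higher and 55 (11.6%) lower in laser members. In WT eyes 388 of 3065 genes (12.7%) were higher and 148 (4.83%) lower. With TMM factors the splits were 8 and 97 in Nr4a1-/- eyes and 519 and 83 in WT eyes, and the median log2 ratio moved to -0.46 with TMM, from -0.16, in Nr4a1-/- eyes and to 0.29, from 0.10, in WT eyes. The Nr4a1-/- laser members summed to 23503 UMIs, against 60434 in Nr4a1-/- control members, 328514 in WT laser members and 91003 in WT control members, and fewer genes reached 20 UMIs in the Nr4a1-/- pair. The minimum also shaped the splits, since 20 UMIs stand for 851 and 331 CPM in Nr4a1-/- laser and control members and for 60.9 and 220 CPM in WT laser and control members. With 1 CPM minimum for both libraries of a pair, that of the shallower one, 12 genes were higher and 6 lower of 184 in Nr4a1-/- eyes and 65 higher and 101 lower of 971 in WT eyes. Neither direction can therefore be read as the commoner one.

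Of 473 genes counted in both genotypes, 0 (0%) were at least 2-fold higher and 11 (2.33%) at least 2-fold lower in laser members of both. Dusp10, a phosphatase of stress kinases, had 3 and 38 UMIs in Nr4a1-/- laser and control members and 13 and 28 UMIs in WT laser and control members. The ratios were 0.203 (0.0401 to 0.640) in Nr4a1-/- eyes and 0.129 (0.0612 to 0.257) in WT eyes. Prkca, protein kinase C alpha, was at 425 and 1142 CPM in Nr4a1-/- laser and control members (ratio 0.373, 0.171 to 0.727) and at 234 and 648 CPM in WT laser and control members (0.362, 0.254 to 0.516). Cblb, a ubiquitin ligase that restrains T cell activation, had ratios of 0.349 (0.168 to 0.658) and 0.454 (0.347 to 0.598). Fyb, an adaptor of receptor signaling, had 0.437 (0.189 to 0.893) and 0.418 (0.294 to 0.599), and Adk, adenosine kinase, 0.314 (0.0967 to 0.793) and 0.332 (0.176 to 0.634). Gimap6, a GTPase of lymphocyte survival, had 0.367 (0.128 to 0.868) and 0.483 (0.321 to 0.736). For Stat5b, Gimap4, Atp8b4 and Sidt1 the Nr4a1-/- interval reached 1. The remaining gene was Crlf3, named after its values were seen. Only 1 gene of this kind was left among members with at least 2 Trdc UMIs. With 1 CPM minimum for both libraries, 3 of 183 genes were left, Prkca, Fyb and Cblb.

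**Figure D5:**
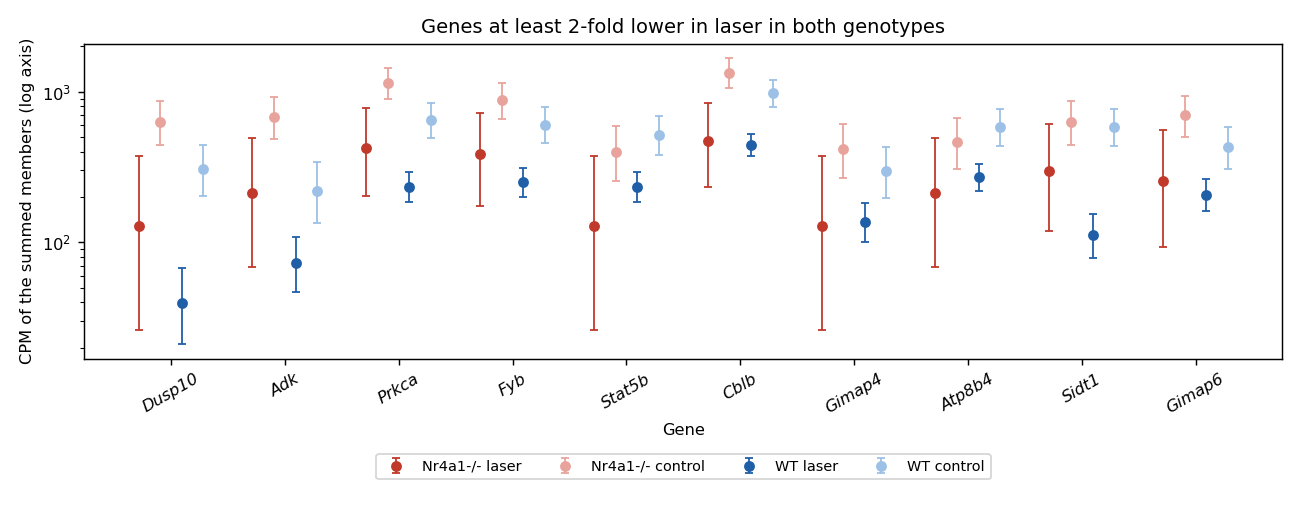
CPM of 10 genes at least 2-fold lower in laser members of both genotypes (log axis), in the summed members of the 4 libraries, with 95% exact counting intervals. Dusp10 is at 128 CPM in Nr4a1-/- laser, 629 in Nr4a1-/- control, 39.6 in WT laser and 308 in WT control members.

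In WT eyes the type 17 genes were higher in laser members. Of 21 counted, 11 were at least 2-fold higher and 0 lower, with a median ratio of 2.44. With 1 CPM minimum for both libraries 9 were higher and 0 lower of 18, with a median of 2.22. Over all genes in WT eyes, 388 of 3065 (12.7%) were higher, and 65 of 971 with 1 CPM minimum. The median log2 ratio of all genes was 0.10. In Nr4a1-/- eyes 3 of the list were counted and 0 passed in either direction. Cd163l1 had 10 and 20 UMIs in Nr4a1-/- laser and control members (ratio 1.29, 0.537 to 2.88) and 465 and 29 UMIs in WT laser and control members (4.44, 3.05 to 6.71). All 20 Cd163l1 UMIs of the Nr4a1-/- control members were in 1 cell, whereas 31 WT laser members shared the 465. S100a4, a calcium-binding protein of motile cells, was at 1021 and 1357 CPM in Nr4a1-/- laser and control members and at 2478 and 615 CPM in WT laser and control members (WT ratio 4.03, 3.07 to 5.38). In Nr4a1-/- control members 74 of the 82 S100a4 UMIs were in 1 cell. Blk had a WT ratio of 3.15 (1.79 to 6.06), Tmem176a 5.69 (2.94 to 12.6) and Serpinb1a 4.57 (2.03 to 12.8). The intervals of Il23r (WT ratio 1.09, 0.764 to 1.58), Rora (0.929, 0.753 to 1.15) and Il7r (0.945, 0.765 to 1.18) included 1. Among members with a type 17 UMI alone, 331 of 2037 genes were at least 2-fold higher and 100 lower in WT laser members.

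Of 11 residency and activation genes counted in WT members, 5 were at least 2-fold higher and 1 lower in laser. With 1 CPM minimum for both libraries 4 of 9 were higher and 1 lower. Over all genes in WT eyes, 388 of 3065 (12.7%) were higher and 148 (4.83%) lower, and 65 and 101 of 971 with 1 CPM minimum. The lower gene of the list was Tnfrsf9, which encodes the costimulatory receptor 4-1BB, at 216 and 440 CPM in WT laser and control members (ratio 0.492, 0.329 to 0.744). Rgs1, a regulator of chemokine signals in tissue lymphocytes, had 138 and 7 UMIs in WT laser and control members (ratio 5.46, 2.58 to 13.8) and 4 and 17 UMIs in Nr4a1-/- laser and control members (0.605, 0.148 to 1.85). Cxcr6 had a WT ratio of 3.45 (1.96 to 6.62) and a Nr4a1-/- ratio of 3.00 (0.863 to 10.8). Outside this list, Nrp1, neuropilin-1, had 80 UMIs in 21 WT laser members and 1 UMI in WT control members (22.2, 3.87 to 886), and 0 UMIs in both Nr4a1-/- groups. Hilpda, a lipid droplet gene, had a WT ratio of 2.07 (1.28 to 3.54). Il1r1 had a WT ratio of 2.44 (1.48 to 4.31), and in Nr4a1-/- members 11 UMIs in laser and 0 in control, a ratio of at least 9.43. Of these 11 Il1r1 UMIs, 9 were in 1 cell. Without it 2 UMIs in 1 laser cell were left, fewer than the floor of 3 counts, so no ratio is given.

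Genes of naive, recirculating and cytotoxic T cells were lower in WT laser members. Of 6 naive and recirculation genes counted, 4 were at least 2-fold lower and 0 higher, as were 4 of 5 with 1 CPM minimum for both libraries. Over all genes in WT eyes, 148 of 3065 (4.83%) were lower, and 101 of 971 with 1 CPM minimum. S1pr1 was at 468 and 381 CPM in Nr4a1-/- laser and control members (ratio 1.23, 0.541 to 2.63) and at 113 and 429 CPM in WT laser and control members (0.263, 0.163 to 0.423). Satb1, a chromatin organizer, had ratios of 1.20 (0.792 to 1.80) in Nr4a1-/- eyes and 0.324 (0.244 to 0.432) in WT eyes. Klf2, which drives S1pr1, had a WT ratio of 0.380 (0.275 to 0.529) and Tcf7 one of 0.390 (0.219 to 0.708). Lef1 had ratios of 0.200 (0.0713 to 0.456) in Nr4a1-/- eyes and 0.506 (0.349 to 0.741) in WT eyes. Of 11 cytotoxic genes counted in WT members 5 were at least 2-fold lower and 0 higher (5 of 8 with 1 CPM minimum), among them Ccl5 (0.433, 0.393 to 0.478) and Ccl4 (0.264, 0.182 to 0.382). The share of members in each set also differed between these libraries, and the sets were therefore read apart, as a description of few UMIs. S1pr1 was at 52.0 and 187 CPM in WT laser and control type 17 members, at 166 and 292 CPM in WT laser and control Ccl5 members and at 367 and 1009 CPM in those with neither mark. Klf2 was at 132 and 134 CPM in WT laser and control type 17 members, at 605 and 1103 CPM in Ccl5 members and at 397 and 1228 CPM in those with neither mark. S1pr1 was thus lower in WT laser members of each set, and Klf2 was lower in the Ccl5 members and those with neither mark.

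Markers of other cells moved with WT laser. The macrophage and monocyte list summed to 255, 314, 1321 and 385 CPM in the Nr4a1-/- laser, Nr4a1-/- control, WT laser and WT control members, and to 1233, 702, 1126 and 547 CPM in CD4 T cells of the same libraries. MHC class II genes summed to 42.5, 99.3, 1047 and 198 CPM in members. A single WT laser member of 14677 UMIs held 144 Cst3 and 128 Cd74 UMIs and 0 of Lyz2. Without it the WT ratio of Cst3 was 2.35 (1.21 to 5.08) in place of 6.23 (3.33 to 13.2), and that of Cd74 0.870 (0.455 to 1.78). Removing the cells with the highest doublet scores took 0 members. The part of free RNA in the WT ratios was not tested.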

How the data were processed

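Live CD45+ cells of 4 libraries, 1 per group, were profiled with a 10x 3' kit (v2 per the labels, v3 per the study's methods). The deposited values are raw UMI counts that the authors made with Cell Ranger 7.0.1 on mm10 (GRCm38), for 32285 genes and 87 ADTs; counting by strand is not given in the sources used here. The files held 11624 barcodes, the number the study gives, of which 11223 were kept, with between 200 and 5000 genes detected and no more than 15% of UMIs mitochondrial. Totals were 7848548 RNA UMIs in the Nr4a1-/- laser library, 13577173 in Nr4a1-/- control, 38052948 in WT laser and 24822857 in WT control. The Trdc in the rule was read as required besides a CD3 gene. CD4 T, CD8 T, NK and B cells were taken by marker UMIs in the same way. The ADT samples were matched to libraries by title, since their genotype and treatment fields all give Nr4a1-/- without laser.

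Members, gene lists and tests were chosen with earlier results of these data known. Counts were summed per class and library into 16 sums and tested with edgeR 4.0.16 (R 4.3.3; glmQLFit and glmQLFTest, filterByExpr, TMM, library as a block, 9 residual degrees of freedom, Benjamini-Hochberg 0.05). DESeq2 1.42.0 was an alternative. The block comes from the design, as classes of a library share the pooled animals, and the correlations of their deviations lay between -0.00165 and 0.161. P-values measure the spread over 4 libraries that also differ in condition. ADTs were scaled to total ADT UMIs. Laser and control sums have exact binomial 95% intervals, shares have Clopper-Pearson intervals, and a 0 is set against 3 counts. Scripts used Python 3.11.15, scanpy 1.11.5 and Biopython 1.88 and were tested on simulated counts. Scrublet scores served as an alternative only, since its automatic calls marked 2 WT laser cells and 0 WT control cells.

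Named genes were up to 10 per direction at least 2-fold changed in both genotypes, up to 10 per direction past the threshold against CD4 and CD8 T cells in all 4 libraries, up to 4 with the largest change per list, receptor and cytokine genes with at least 10 UMIs, and Nr4a1. 1 gene is not reported here and was taken out of the type 17 set and list. Alternatives covered membership, surface protein, cell filters, thinning, doublets, scaling, low-count filter, block and each library left out.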

Additional observations from a re-analysis of the deposited data

Results flagged for a closer look

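For 6 genes the members' laser to control ratios passed 2-fold in opposite directions in the 2 genotypes, and the difference between the genotypes was not tested, as each group is 1 library. With 1 CPM minimum for both libraries of a pair, only Gzma was left. Gzma, granzyme A, had a ratio of 15 in Nr4a1-/- members (99 UMIs in 2 laser cells, 17 UMIs in 2 control cells) and 0.470 in WT members (234 UMIs in 12 laser cells, 138 UMIs in 6 control cells). Fcer1g, the common gamma chain of Fc receptors, had ratios of 0.0989 in Nr4a1-/- and 2.12 in WT members. Gch1, the first enzyme of tetrahydrobiopterin synthesis, had 0.245 and 2.10. Slc38a2, an amino acid transporter, had 0.429 and 3.28. Epb41, a membrane skeleton protein, had 2.33 in Nr4a1-/- and 0.373 in WT members, and Rps6ka3, the kinase RSK2, had 2.06 and 0.345.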

How the results depend on the processing

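Of 229 alternative values of counts, shares and ratios, 156 stayed within 1.5 times the main count, its interval or its SD and 73 moved, with 0 reversed. Of 751 alternative values of single genes, 718 kept their side, 25 lost the threshold (9 genes, each lower in gamma-delta T cells), 8 moved and 0 reversed. The causes were not tested. The WT share ratio moved to 1.43 without the 6 exclusions, an alternative added after seeing the data, as were the share of CD3 cells, leaving out single cells, the type 17 members alone and 1 CPM minimum for both libraries of a pair.

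In Nr4a1-/- members, genes higher in laser numbered 11 with a gamma constant UMI, 11 with 0 Trac UMIs, 9 without CD4 or CD8a protein, 3 in members with a type 17 UMI alone, 71 at 10 UMIs, 8 with TMM factors and 45 at 1.5-fold. Genes lower in laser numbered 29 with at least 2 Trdc UMIs, 21 with a type 17 UMI alone, 6 with 1 CPM minimum for both libraries, 228 at 10 UMIs, 97 with TMM and 119 at 1.5-fold. In WT members, genes higher in laser numbered 202 with 0 Trac UMIs, 65 with 1 CPM minimum, 856 at 10 UMIs and 747 at 1.5-fold, and lower 81 with 0 Trac UMIs, 332 at 10 UMIs, 83 with TMM and 410 at 1.5-fold. Genes higher in both genotypes numbered 3 with 0 Trac UMIs, 1 without the member with most MHC class II UMIs, 6 at 10 UMIs, 1 with TMM and 4 at 1.5-fold. Genes lower in both numbered 1 with at least 2 Trdc UMIs, 3 with a gamma constant UMI, 4 with 0 Trac UMIs, 5 without CD4 or CD8a protein, 1 with a type 17 UMI alone, 3 with 1 CPM minimum, 22 at 10 UMIs, 7 with TMM and 27 at 1.5-fold. Gzma in Nr4a1-/- members moved to 3.77 with at least 2 Trdc UMIs and to 4.94 with 0 Trac UMIs, and in WT members to 1.01 with 0 Trac UMIs.

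Genes lower than in CD4 T cells numbered 125 without TMM factors and 410 without a filter, and lower than in CD8 T cells 132 and 421. Leaving out each library in turn gave 96 to 279 genes higher and 80 to 277 lower than in CD4 T cells, 79 to 329 higher and 77 to 243 lower than in CD8 T cells, and 267 to 559 higher and 241 to 541 lower than in NK cells. The counts without the WT laser library were 96 and 80, 79 and 86, and 267 and 241 (higher and lower than in CD4 T, CD8 T and NK cells), and without the WT control library 124 and 95, 143 and 77, and 364 and 294. It gave 0 to 2 ADTs higher and 1 to 2 lower than in CD4 T cells, 0 to 3 lower than in CD8 T cells, and 2 to 7 higher and 2 to 8 lower than in NK cells. Leaving out the Nr4a1-/- laser library, too, gave 1 ADT lower than in CD4 T cells, 0 lower than in CD8 T cells and 7 higher than in NK cells. With TMM factors 3 ADTs were higher and 1 lower than in CD8 T cells, and 9 higher and 5 lower than in NK cells. Without the replicate block, that is with library not in the design, 210 genes were higher and 173 lower than in CD4 T cells, 240 and 166 against CD8 T cells and 504 and 511 against NK cells, with 0 ADTs higher and 1 lower than in CD4 T cells, 0 lower than in CD8 T cells and 1 higher and 2 lower than in NK cells. DESeq2 called 257 and 201 genes against CD4 T cells, 302 and 190 against CD8 T cells and 588 and 433 against NK cells.

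Depth limits the Nr4a1-/- comparison: 8 laser members of 23503 UMIs in all put 3 counts at 128 CPM. Thinned to 2000 UMIs, 0 of 7 Nr4a1-/- control members had a type 17 UMI, so no type 17 ratio is given there.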

Other observations

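Ikzf2, which encodes the transcription factor Helios, was at 808, 331, 447 and 538 CPM in the Nr4a1-/- laser, Nr4a1-/- control, WT laser and WT control members and was higher than in CD4 T cells (log2 fold change 1.33 ± 0.28, edgeR adjusted p = 0.0042) and in CD8 T cells (1.27 ± 0.27, adjusted p = 0.0032). Ltb, which encodes lymphotoxin beta, and Tnfsf11, which encodes RANKL, passed against CD8 T cells (log2 fold changes 0.73 ± 0.20 and 2.07 ± 0.48, edgeR adjusted p = 0.025 and 0.0099) and not against CD4 T cells. Of 8 cell cycle genes tested, 1 was lower than in CD4 T cells (Hmgb2) and 3 were lower than in CD8 T cells (Top2a, Hmgb2 and Tubb5), and Mki67 had 0, 0, 3 and 1 UMIs in the Nr4a1-/- laser, Nr4a1-/- control, WT laser and WT control members. Of 9 interferon-stimulated genes, Ifi27l2a was lower than in both classes and the other 8 passed neither test. Of 9 hypoxia genes tested, 0 passed in the edgeR test against CD4 or CD8 T cells, and 2 (Vegfa and Tpi1) were lower than in NK cells. Over all 7638 genes, 486 passed in either direction against CD4 T cells, 507 against CD8 T cells and 1080 against NK cells.

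The relatives of Nr4a1 were read in all 4 groups. Nr4a2 had 12, 35, 114 and 43 UMIs and Nr4a3 had 7, 15, 122 and 33 UMIs in the Nr4a1-/- laser, Nr4a1-/- control, WT laser and WT control members. Their laser to control ratios were 0.882 (0.417 to 1.74) and 1.20 (0.414 to 3.13) in Nr4a1-/- eyes and 0.734 (0.513 to 1.07) and 1.02 (0.692 to 1.55) in WT eyes, with every interval including 1.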
